A study of Mus musculus with 1009 samples.

Results

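The olfactory bulb libraries of the acute dietary restriction (aDR) experiment were examined here, 9 of the 1009 libraries in the whole series. They were chosen by their label for the region and the diet. All came from female C57BL/6JN mice killed at 19 months of age, 5 on aDR (mice 61, 62, 64, 65 and 67) and 4 fed ad libitum (AL, mice 63, 66, 68 and 69). Mice were assigned to a diet at 18 months. The aDR mice first received 10% less food for 7 days and then 25% less, in 1 meal a day, and all mice were killed before the hour of that meal. Small RNA was sequenced from dissected bulk tissue, so that fewer cells of a type and less RNA per cell cannot be told apart. Perfusion was described for the aging cohort of the study and not separately for the diet mice, which bears on miRNAs of blood cells. Each library is 1 mouse, and the question was which miRNAs differed in level between the diets.

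A miRNA is a small RNA that guides an Argonaute protein to messenger RNAs through its seed, the bases 2 to 8 from its 5′ end, and represses them. The olfactory bulb receives new interneurons throughout life and is the brain region known for miRNAs of the miR-200 family and the miR-183 cluster, which act in olfactory neurogenesis and in sensory cells. Feeding state is known to reach the olfactory system through hormones such as insulin and ghrelin. miR-451a, on which the results below turn, is known from maturing red blood cells and is unusual in that Argonaute2, and not Dicer, cuts its precursor.

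The sequences below are shown because miR-451a was the miRNA called between the diets and miR-144-3p lies beside it in the genome. Mature sequences are from RefSeq on GRCm38.p6, with the seed in capitals.
miR-451a: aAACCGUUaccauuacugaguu
miR-144-3p: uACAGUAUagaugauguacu
Mature miR-451a maps to chr11:78073186-78073207 on the plus strand, inside the Mir451a gene at chr11:78073170-78073241. Mir144 lies 99 bases upstream at chr11:78073005-78073070 on the same strand. The annotation places both genes between Flot2 and Eral1 and in no exon of a protein-coding gene. Mir451b is annotated on the opposite strand of the Mir451a hairpin, and its product had 0 reads in any library of the diet experiment. In the hairpin below, the capitals mark the mature miRNA, which runs around the loop from base 17 to base 38.
Mir451a hairpin: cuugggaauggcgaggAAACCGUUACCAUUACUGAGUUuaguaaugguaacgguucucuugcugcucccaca

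The miRNAs that mark this region are shown because they were checked against the label and belong to the most abundant members of the list described further on. miR-200b-3p, miR-200c-3p and miR-429-3p share 1 seed, from which that of miR-200a-3p differs. miR-182-5p and miR-96-5p have closely similar seeds.
miR-200a-3p: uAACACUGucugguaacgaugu
miR-200b-3p: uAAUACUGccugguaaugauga
miR-200c-3p: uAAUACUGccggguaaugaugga
miR-429-3p: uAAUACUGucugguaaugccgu
miR-182-5p: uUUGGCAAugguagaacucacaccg
miR-183-5p: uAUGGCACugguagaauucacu
miR-96-5p: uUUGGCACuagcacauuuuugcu
In reads-per-million miRNA reads (rpmm), miR-200b-3p had 5035 to 29524 in the 9 bulb libraries and at most 159 in the 104 libraries of the other 13 regions. miR-182-5p had 5909 to 22499 rpmm in the bulb and at most 196 elsewhere. The ranges lay closer for miR-429-3p, with 24367 to 59189 rpmm in the bulb and up to 7577 elsewhere, and for miR-200c-3p, with 7615 to 29562 and up to 5201. Of the less abundant members, miR-200a-5p had 348 to 1117 rpmm in the bulb and up to 265 elsewhere. The ranges overlapped for miR-200c-5p, with 2.16 to 13.1 and up to 2.67 rpmm. They also did for miR-429-5p, which was nearly absent, with up to 0.0604 and up to 0.199 rpmm. The labelled tissue was thus present in every library.

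The libraries held 16218698 to 23360538 miRNA reads and differed in composition. The first principal component of the 338 miRNAs with a mean of at least 10 counts-per-million (CPM) took 55.5% of the variance. It set mice 66 and 68 (AL) and 67 (aDR) apart from the other 6, so it did not follow the diet. The factors of the trimmed mean of M values (TMM), which correct CPM for composition, were 0.634 in mouse 67 and 0.763 in mouse 68 and 0.991 to 1.203 in the others. miR-335-5p, one of the miRNAs that carried this component, had 4.87 to 5.35 CPM in these 3 mice and 11.6 to 32.4 CPM in the other 6. An alternative without these 3 mice, added after the data were seen, leaves 4 aDR and 2 AL mice. Its values are given beside miR-451a, several other miRNAs and most lists. Over all miRNAs the median log2 fold change was 0.06 with these 3 mice and 0.04 without them.

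One miRNA passed edgeR's test between the diets, miR-451a, and it was higher in aDR, a call that 5 of 19 alternative settings also gave. The aDR mice 61, 62, 64, 65 and 67 had 10.2, 14.5, 10.4, 11.0 and 5.54 CPM, and the AL mice 63, 66, 68 and 69 had 2.59, 3.82, 3.59 and 3.31 CPM. On this scale every aDR library lay above every AL library, with mouse 67 lowest among aDR. The means were 10.3 ± 3.19 CPM (SD, n = 5) and 3.33 ± 0.533 CPM (SD, n = 4). The log2 fold change was 1.64 (SE 0.31, 95% interval 0.99 to 2.29), with an adjusted p of 0.0329 by edgeR's quasi-likelihood test with Benjamini-Hochberg adjustment. It rested on 57 to 407 reads per aDR library and 48 to 87 reads per AL library. At a threshold of adjusted p under 0.05 and a fold of at least 1.5, 1 of 1288 miRNAs was called higher (0.0776%) and 0 lower (0%), and 28 had an unadjusted p under 0.05 (2.17%), 14 in each direction.

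**Figure D1:**
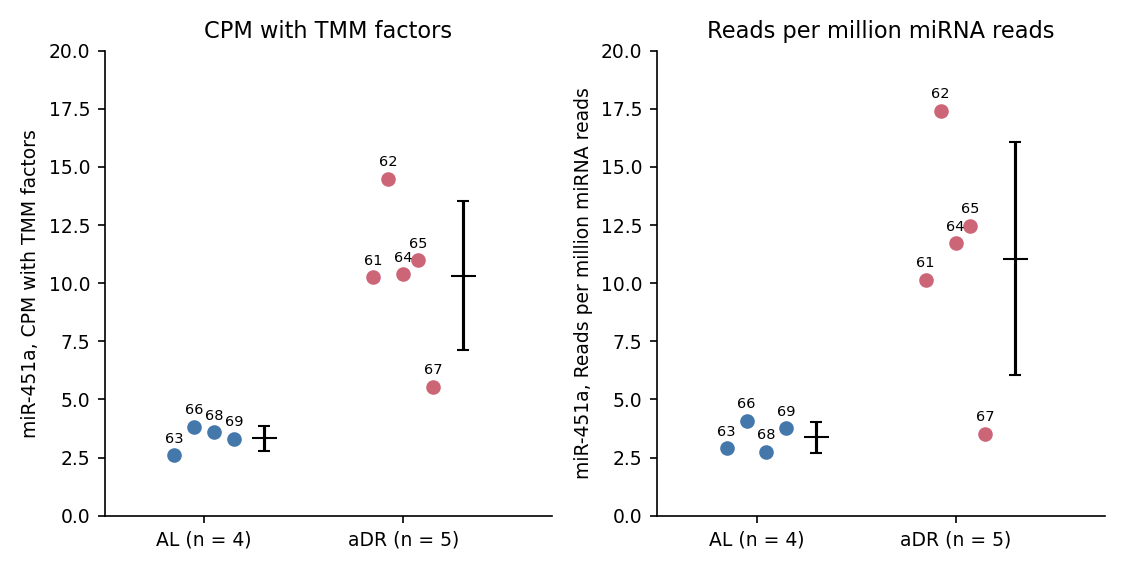
miR-451a in each of the 9 olfactory bulb libraries (points, numbered by mouse), with the mean and SD of each diet beside them, in CPM with TMM factors (left) and in reads-per-million miRNA reads (right). The groups are apart on the left, and on the right the aDR mouse 67 at 3.51 lies among the AL mice at 2.74 to 4.08.

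The separation depended on the scale. Without the TMM factors, mouse 67 had 3.51 rpmm, within the AL range of 2.74 to 4.08 rpmm, while the other 4 aDR mice had 10.2 to 17.4 rpmm. An exact permutation test, two-sided, gave p = 0.0159 on log2 CPM, the smallest that 5 against 4 mice can give (adjusted p = 0.0612 over 27 miRNAs). These 27 include the 15 with the smallest p in this same comparison, so neither value is independent support. On log2(rpmm + 1) the exact permutation test gave p = 0.0476 (adjusted p = 0.167 over 7 miRNAs). Without mice 66, 67 and 68 the log2 fold change was 1.93 and the adjusted p by edgeR was 0.00115. That setting leaves 4 aDR and 2 AL mice and drops mouse 67, the aDR mouse within the AL range in rpmm. The call also held with factors by relative log expression, with no filter and in DESeq2 (adjusted p 0.0418, 0.00640 and 0.000135). It was lost with total counts (adjusted p 0.693), limma-voom (0.111), limma-trend on log2(rpmm + 1) (0.996), and a filter of 5 reads in 4 libraries (0.0604). It was also lost with a spread shared over all regions (1.00) and with the mouse as a block over all regions in limma-voom (1.00). Without mouse 67 alone the adjusted p was 0.00109, and without any 1 of the other 8 mice it was 0.0812 to 0.230, above the threshold.

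miR-144-3p, which is cut from the same primary transcript, was near the floor of detection. It had 3, 7, 5, 4 and 2 reads in aDR mice 61, 62, 64, 65 and 67 and 1, 0, 1 and 0 reads in AL mice 63, 66, 68 and 69. All aDR libraries thus lay above all AL libraries, at 21 reads against 2 in all, and the adjusted p was 0.998 by edgeR. Its other arm, miR-144-5p, had 2 reads in aDR and 1 in AL. Across all miRNAs, 7 had every aDR library above every AL library (0.543%) and 7 the reverse (0.543%). Of these 14, miR-451a was the only one with a mean of at least 1 CPM.

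The other miRNAs of red blood cells did not pass the test. miR-486a-5p, a further erythroid miRNA that is also found in muscle, had 2.15 ± 0.600 CPM in aDR (SD, n = 5) and 1.77 ± 0.766 CPM in AL (SD, n = 4). Its log2 fold change was 0.27 (95% interval -0.48 to 1.01), and that of miR-486b-5p, a near-identical copy with which the counting may split reads, was 0.31 (-0.44 to 1.05). Their reads were nearly the same, 215 and 213 in aDR and 139 and 134 in AL, so they are not separate evidence. Without mice 66, 67 and 68 they were at -0.07 and -0.03. miR-486a-3p, the member with the highest mean over the 9 libraries, was at -0.42 (-1.03 to 0.19), with 10.1 CPM in aDR and 13.6 CPM in AL. Of the 6 members of the erythroid list tested, 1 passed and 2 had an unadjusted p under 0.05. The median of these members was 0.29, and -0.05 without mice 66, 67 and 68. Both medians lie between miR-486a-5p and miR-486b-5p, which both enter the summed list as well. The summed list took 0.00138% to 0.00454% of miRNA reads in aDR and 0.00159% to 0.00326% in AL (exact permutation p = 0.587, adjusted p = 0.928 over the 17 library properties tested). That sum adds miR-451a, which was above 0, and miR-486a-3p, which was below it, so it does not show that its members were level between the diets. The part of blood left in the tissue in the miR-451a result was not tested.

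**Figure D2:**
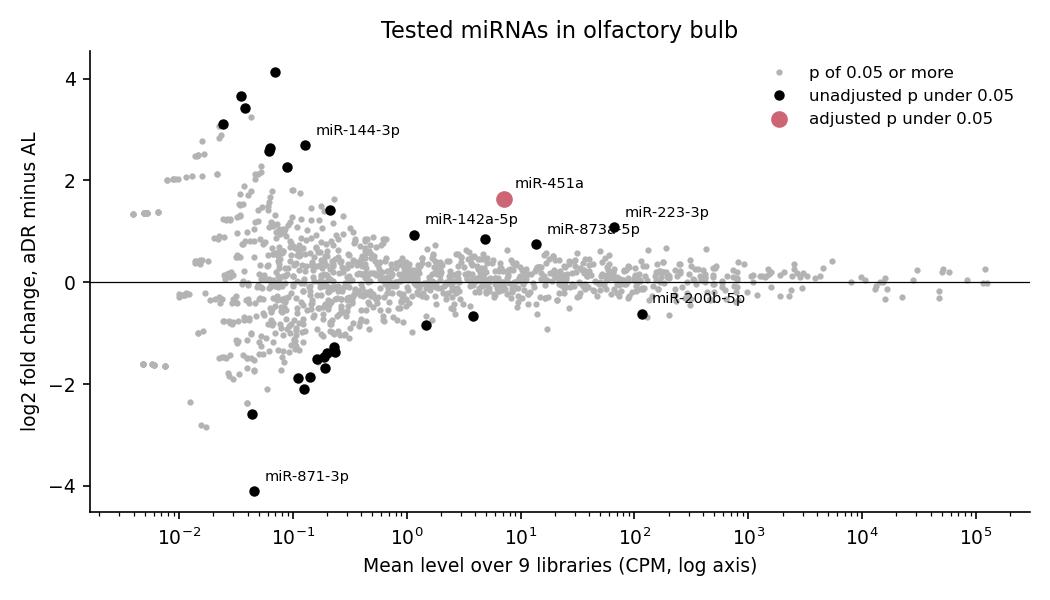
The log2 fold change (aDR minus AL) of each of the 1288 tested miRNAs against its mean level over the 9 libraries on a log axis. miR-451a at 7.22 CPM is the 1 miRNA past the threshold, and most others with an unadjusted p under 0.05 (black) lie below 1 CPM.

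Among the 15 miRNAs with the smallest p, 12 had a mean under 1 CPM, and apart from miR-451a none passed the adjustment. miR-871-3p, from the X chromosome, had 0 reads in the 5 aDR libraries, which allows up to 3, and 8 reads over the 4 AL libraries. miR-7087-5p had 10 reads in aDR and 0 in AL, and miR-5104b-5p 8 and 0. These counts allow no fold. A pair of others was well covered. miR-873a-5p had 9.95, 9.93, 17.5, 29.5 and 17.0 CPM in aDR mice 61, 62, 64, 65 and 67 and 9.09 to 11.5 CPM in AL (log2 0.75, 95% interval 0.09 to 1.41, adjusted p 0.998 by edgeR). Mice 61 and 62 lay within the AL range.

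miR-223-3p, a miRNA of neutrophils and other myeloid cells, was the other. It had 152, 70.9, 50.9, 139 and 19.2 CPM in aDR mice 61, 62, 64, 65 and 67, and 59.6, 18.9, 23.4 and 61.6 CPM in AL mice 63, 66, 68 and 69. The diets overlapped, and mice 66, 67 and 68 had the 3 lowest values. The log2 fold change was 1.08 (95% interval 0.15 to 2.01, unadjusted p = 0.0252, adjusted p = 0.998 by edgeR), and 0.73 (0.05 to 1.41) without mice 66, 67 and 68. miR-142a-5p, a pan-leukocyte miRNA, was at 0.93 (0.05 to 1.82) and 1.46 against 0.782 CPM, and at 0.59 (-0.21 to 1.40) without those mice. Its other arm, miR-142a-3p, was at 0.63 (-0.20 to 1.45). miR-150-5p, the most abundant member of the list below, was at -0.10 (-0.65 to 0.45), with 570 against 610 CPM, and miR-150-3p at -0.02 (-0.76 to 0.72). In that list 6 of 8 members had values above 0, beside 735 of all 1288 miRNAs. It holds both arms of several hairpins, so its members are not independent. Of the 8 tested members of the list of white blood cells and microglia, 0 passed and 2 had an unadjusted p under 0.05, both higher, and the summed list took 0.0525% to 0.150% of reads in aDR and 0.0675% to 0.130% in AL. The median log2 fold change of the list was 0.45, and 0.22 without those mice.

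miR-155-5p and miR-146a-5p, which microglia express and which act in inflammatory signalling, were examined because the study had singled them out with miR-5100 as miRNAs of brain aging. miR-155-5p had 40.8, 30.3, 35.2, 39.5 and 34.5 CPM in aDR mice 61, 62, 64, 65 and 67 and 28.3, 27.3, 23.2 and 40.6 CPM in AL mice 63, 66, 68 and 69. AL mouse 69 lay inside the aDR range and the other 3 below it. The log2 fold change was 0.27 (95% interval -0.27 to 0.82), and 0.04 (-0.52 to 0.60) without mice 66, 67 and 68. miR-146a-5p was at 0.07 (-0.45 to 0.58), with 404 against 386 CPM. miR-5100 had 3, 4, 5, 2 and 3 reads in aDR and 0, 6, 5 and 1 reads in AL, in the same order of mice, and its log2 fold change was 0.13 (-1.37 to 1.64). Without mice 66, 67 and 68 it was 2.31 (-0.21 to 4.84, adjusted p 0.986 by edgeR), a value that rests on 1 AL read.

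The miRNAs that mark the bulb had log2 fold changes mostly below 0, and none passed the test. miR-200c-3p had 18827, 9372, 17667, 11784 and 12768 CPM in aDR mice 61, 62, 64, 65 and 67 and 18201, 16922, 9984 and 26082 CPM in AL mice 63, 66, 68 and 69. AL mouse 69 lay above every aDR mouse and the other 3 AL mice within the aDR range, and the log2 fold change was -0.34 (95% interval -0.99 to 0.31). Without mice 66, 67 and 68 it was -0.66 (-1.19 to -0.12, adjusted p 0.986 by edgeR). miR-429-3p was at -0.30 (-0.98 to 0.38), miR-183-5p at -0.29 (-0.91 to 0.34) and miR-182-5p at 0.00 (-0.69 to 0.69), the last moving to -0.34 without those mice. miR-200b-5p, the minor arm of its hairpin, had 97.6, 75.4, 125, 81.9 and 87.4 CPM in aDR and 122, 177, 83.9 and 193 CPM in AL, a log2 fold change of -0.62 (-1.21 to -0.04, unadjusted p = 0.0384, adjusted p = 0.998 by edgeR). Of the 15 members tested, 0 were called and 12 had values below 0, beside 553 of all 1288 miRNAs. The median of the list was -0.29 beside 0.06 over all 1288. The list holds both arms of hairpins, and several of the genes lie side by side on 1 chromosome, so the members are not independent. The summed members took 7.45% to 15.9% of reads in aDR and 9.71% to 17.8% in AL (exact permutation p = 0.302, adjusted p = 0.928). Without mice 66, 67 and 68 the median of the list was -0.51, with 14 of 15 below 0. Under factors by relative log expression 14 of the 15 were also below 0, beside 626 of all 1288, whose median was then 0.01. Under total counts it was 14 of 15, beside 548 of 1288 with a median of 0.08.

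Of the 10 neuronal miRNAs, 0 passed, with a median log2 fold change of 0.14, which was 0.09 under factors by relative log expression and 0.04 without mice 66, 67 and 68. miR-124-3p, the most abundant neuronal miRNA and a promoter of neuronal identity, had 88822 to 167481 CPM in aDR and 94709 to 177152 CPM in AL (log2 -0.02, -0.67 to 0.62). miR-137-3p, which acts in neuronal maturation, had 218, 151, 151, 468 and 155 CPM in aDR and 186, 89.3, 166 and 129 CPM in AL. Mouse 65 stood above the rest, and the log2 fold change was 0.68 (-0.03 to 1.38, adjusted p 0.998 by edgeR). miR-132-3p, which neurons make in response to activity, had 54.5, 129, 134, 44.5 and 146 CPM in aDR and 71.8, 167, 184 and 232 CPM in AL. Its log2 fold change was -0.69 (-1.43 to 0.05), while its sister miR-212-3p, from the same transcript, was at -0.19 (-0.83 to 0.44) and miR-132-5p, the other arm of its hairpin, at 0.24 (-0.32 to 0.79). Of the 6 members of the neuronal activity list 0 passed and 2 had values above 0, with a median of -0.12. Without mice 66, 67 and 68, 4 of 6 were above 0 and the median was 0.07, with miR-132-3p at -0.78 (-1.51 to -0.06, adjusted p 0.986 by edgeR).

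The miRNAs known from nutrient, insulin and lipid metabolism gave 0 calls among 14 tested, with a median of 0.11, which was -0.01 without mice 66, 67 and 68. miR-34a-5p, a p53 target that represses the deacetylase Sirt1, had 771, 546, 594, 935 and 583 CPM in aDR and 607, 880, 1348 and 736 CPM in AL (log2 -0.38, -0.97 to 0.21), and its log2 fold change was 0.05 without mice 66, 67 and 68. miR-33-5p, which lies in the Srebf2 gene and represses the cholesterol exporter Abca1, was at -0.10 (-0.64 to 0.43). miR-103-3p and miR-107-3p, which act on insulin sensitivity, were at 0.20 (-0.42 to 0.82) and 0.24 (-0.46 to 0.93). Without mice 66, 67 and 68 they were at -0.01 and -0.06. miR-375-3p, known from pancreatic islets, was at -0.19 (-0.95 to 0.58). The let-7 family, which acts on insulin and growth factor signalling, had 10 members tested, 0 called, and log2 fold changes from -0.42 to 0.24.

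Other lists also held 0 calls. In endothelial and mural cells all 5 tested members had values above 0 (median 0.20), with miR-126a-3p, the endothelial miRNA of vascular integrity, at 0.28 (-0.28 to 0.84). Without mice 66, 67 and 68 this was 3 of 5 with a median of 0.03. The oligodendrocyte list had a median of -0.13 over 5 members (-0.17 without those mice) and the choroid plexus list of 0.08 over 6. Of the 40 members of the Dlk1-Dio3 imprinted cluster, a maternally expressed array of neuronal miRNAs, 36 had values above 0, beside 735 of all 1288. Their median was 0.25, the smallest adjusted p was 0.998 by edgeR, and 32 of 40 were above 0 without mice 66, 67 and 68. The members are cut from shared transcripts, so they are not independent. The Sfmbt2 cluster, whose copies share reads, had 52 of 75 above 0 and a median of 0.21, and 45 of 75 with a median of 0.08 without mice 66, 67 and 68.

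The same mice gave the libraries of the other 13 regions, 7 to 13 per mouse, so the aDR effect in the bulb was compared with the mean effect elsewhere. For miR-451a the difference between them was -0.04 on the log2 scale (95% interval -1.22 to 1.14), an interval that also holds large differences. The edgeR intervals of this comparison take libraries of 1 mouse as independent. With the mouse as a block in limma-voom the difference was 0.12 (-1.58 to 1.81). Over 1334 miRNAs, 0 differed (0%) by edgeR's quasi-likelihood test, and 21 had an unadjusted p under 0.05. By limma-voom with the mouse as a block it was also 0, with 24 under 0.05. Of the miRNAs with the smallest p in that comparison, miR-1306-5p (log2 difference -0.95, -1.66 to -0.25) and miR-873a-5p (0.96, 0.14 to 1.77) had means of about 9.53 and 13.8 CPM in the bulb. miR-185-5p, at 804 CPM, was at 0.71 (-0.01 to 1.42). None passed the adjustment.

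Fitted region by region, miR-451a had values above 0 in 12 of the other 13 regions, with an unadjusted p under 0.05 in 6 and a call by edgeR in 1, hypothalamus. In 10 of the 13 the median library of both diets held more than 3 reads, a minimum set after the data were seen, and there it was above 0 in 9, with an unadjusted p under 0.05 in 3 and 0 called. This minimum leaves out regions where AL was low, and all 3 left out were higher in aDR. They held 227 reads in aDR against 20 in AL in anterior hippocampus (unadjusted p = 0.00420), 254 against 6 in thalamus (unadjusted p = 0.0173) and 88 against 2 in hypothalamus (unadjusted p = 0.000967). These are sums over 5 and 4, 5 and 3, and 4 and 4 libraries. In that order, single aDR libraries held 2 to 107, 0 to 142 and 0 to 42 reads. Single AL libraries held 2 to 12, 0 to 6 and 0 to 1. The interval of miR-451a in the bulb was the narrowest. In visual cortex it had 1.16 to 85.6 rpmm in aDR and 1.21 to 4.74 rpmm in AL (log2 2.54, 1.15 to 3.94, adjusted p 0.723 by edgeR). In hypothalamus it had 0 to 5.02 rpmm in aDR and 0 to 0.0887 rpmm in AL, where reads were so few that no fold is given, and it was called there (adjusted p 0.0350 by edgeR), as 1 of 61 of 1263 miRNAs called in that region (4.83%). In choroid plexus it was at -0.33 (-1.46 to 0.80) and in caudate putamen at 0.06 (-1.05 to 1.17). In rpmm the ranges of the diets overlapped in every region, the bulb included. Values of miR-486a-5p were also above 0 in all 13 other regions, with an unadjusted p under 0.05 in 3 and 0 called by edgeR (lowest adjusted p 0.114). They were at 1.05 (0.09 to 2.02, unadjusted p = 0.0335) in visual cortex and 1.31 (0.08 to 2.53, unadjusted p = 0.0372) in subventricular zone. In hypothalamus, the other of the 3, it had 186 reads over the aDR libraries, most of them in 1 library and 0 in another, and 18 over the AL libraries, all in 1 library.

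**Figure D3:**
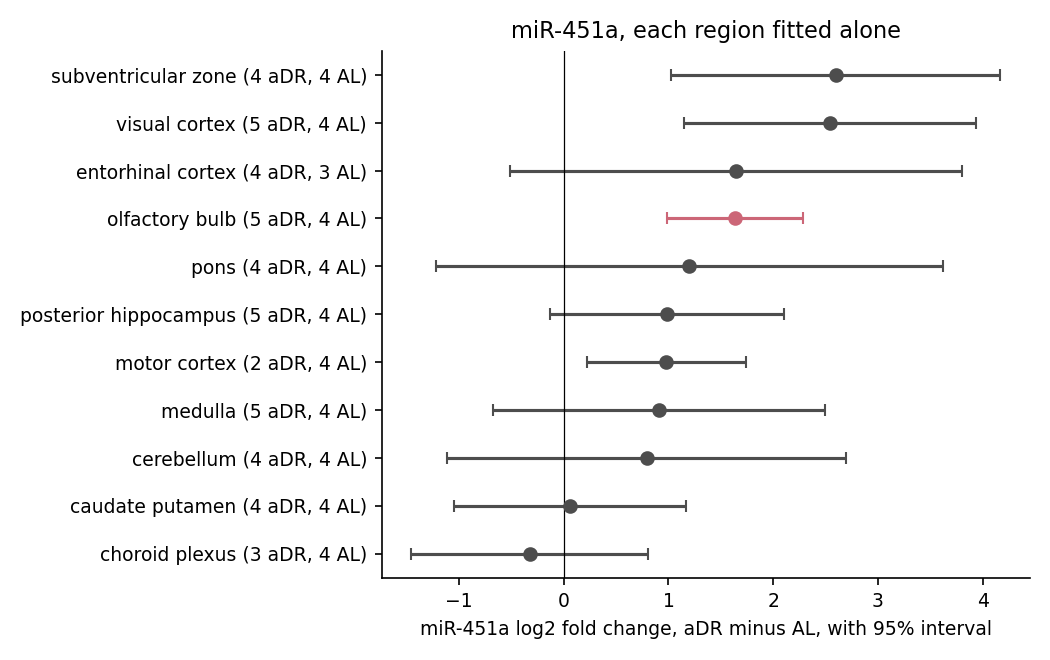
The log2 fold change of miR-451a (aDR minus AL) with its 95% interval in the 11 regions where the median library of both diets held more than 3 reads, fitted apart, with the number of mice beside the name. The olfactory bulb (red) at 1.64 has the narrowest interval, and anterior hippocampus, thalamus and hypothalamus, all higher in aDR, are not drawn because their AL libraries held too few reads.

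Averaged per mouse over its libraries of the other 13 regions (7 for mouse 64 and 11 to 13 for the others), as log2(rpmm + 1) relative to the mean of each region, miR-451a was 0.52, 1.08, 0.55, -0.75 and 0.79 in aDR mice 61, 62, 64, 65 and 67. In AL mice 63, 66, 68 and 69 it was -0.84, 0.00, -0.48 and -0.59. Mouse 65 was among the lowest, and the other 4 aDR mice lay above all AL mice. The means differed by 0.91 (0.44 ± 0.70, n = 5, against -0.47 ± 0.35, n = 4, SD, exact permutation p = 0.0635, adjusted p = 0.222 over 7 miRNAs). In the same measure miR-144-3p differed by 0.16 (exact permutation p = 0.0317, adjusted p = 0.222) and miR-486a-5p by 0.53 (exact permutation p = 0.127, adjusted p = 0.222). miR-144-3p had a median of 0 and at most 1.34 rpmm in these libraries. The 1 added before the log shrinks differences at such levels, so the sizes cannot be compared between these miRNAs. For miR-451a, mouse 65 was thus low elsewhere and high in the bulb, at 11.0 CPM. Mouse 67 was high elsewhere and the lowest aDR mouse in the bulb.

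To see how the diet groups compare with untreated mice, miR-451a was read in the bulbs of the 25 females of the aging cohort, 5 at each of the ages from 3 to 21 months. The tables were made separately, so levels were compared in rpmm, with no test. At 18 months the level ranged from 1.83 to 17.9 rpmm with a median of 4.47, and at 21 months from 1.39 to 32.7 with a median of 5.38. Of the 25 mice, 15 lay above the highest AL mouse (4.08 rpmm), 5 at or above the aDR median of 11.7 and 3 above the highest aDR mouse (17.4). Untreated females of the aging cohort thus spanned more than the range of both diets. The slope with age was 0.086 log2 per month (SE 0.036, adjusted p 0.393 by edgeR).

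**Figure D4:**
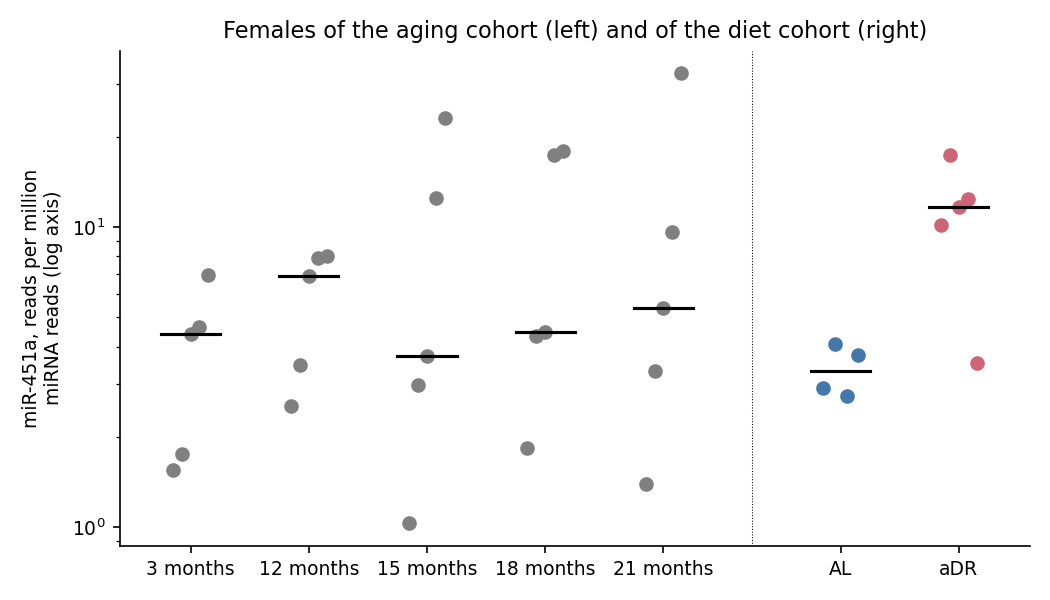
miR-451a in olfactory bulb (rpmm, log axis) for 25 females of the aging cohort by age, and for the 4 AL and 5 aDR mice, with each median as a bar. The untreated mice spread from 1.03 to 32.7 rpmm, a range that holds all 9 diet mice.

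In those females 10 of 928 miRNAs fell with age (1.08%) and 0 rose at an adjusted p under 0.05 by edgeR. miR-296-5p, miR-296-3p and miR-298-5p, from 1 imprinted locus beside Nespas and Gnas, had the smallest p, with slopes of -0.093, -0.073 and -0.072 log2 per month. In the diet mice, miR-296-5p had 5.18, 7.26, 5.61, 5.43 and 2.33 CPM in aDR mice 61, 62, 64, 65 and 67 and 4.05 to 4.96 CPM in AL. Its log2 fold change was 0.27 (95% interval -0.37 to 0.92). That of miR-296-3p was 0.08 (-0.60 to 0.76) and that of miR-298-5p was 0.16 (-0.41 to 0.72). For the 10 the smallest unadjusted p between the diets was 0.392. Without the 3 month mice 0 of 928 were called by edgeR and 46 had an unadjusted p under 0.05. The slopes of these 10 were then below 0 for 9, at -0.062 (95% interval -0.107 to -0.018) for miR-296-5p and -0.034 (-0.073 to 0.005) for miR-298-5p, and at 0.013 (-0.024 to 0.050) for miR-15b-5p.

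IsomiRs, the forms of a miRNA that differ in their ends or by a base, were tested one by one. Of 18135 isomiRs 0 passed (0%) by edgeR, with 287 at an unadjusted p under 0.05, and by DESeq2 0 passed, with 234. The smallest p was that of the most abundant form of miR-451a. The 4 leading forms, of which 3 are longer at the 3′ end than the reference, are shown because they carry the reads behind the result above. They share the 5′ end and so the seed (capitals), and the added bases are those of the hairpin.
reference end: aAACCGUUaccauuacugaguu
1 base longer: aAACCGUUaccauuacugaguuu
4 bases longer: aAACCGUUaccauuacugaguuuagu
3 bases longer: aAACCGUUaccauuacugaguuuag
The form longer by 1 base had 67, 187, 96, 112 and 24 reads in aDR mice 61, 62, 64, 65 and 67 and 20, 36, 21 and 15 in AL mice 63, 66, 68 and 69 (log2 1.88, SE 0.40, adjusted p 1.00 by edgeR). The form with the reference end had 272 reads in aDR and 64 in AL (log2 1.59, SE 0.39).

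The 3′ ends of miR-451a varied, and AL mouse 69 stood apart. The form longer by 1 base made up 43.2% ± 2.78 of miR-451a reads in aDR (SD, n = 5) and 36.5% ± 8.77 in AL (SD, n = 4). AL mouse 69 had 23.4% and the other 3 AL mice 39.6% to 41.7%. Without mouse 69 the difference between the means was 2.34 percentage points in place of 6.70 (exact permutation p = 0.214). With all 9 mice the exact permutation p was 0.0952, and 114 miRNAs were tested in this way with 0 past an adjusted p of 0.05 (lowest adjusted p 1). In AL mouse 69 the form longer by 4 bases took 31.2% of 64 reads, against 3.57% to 17.0% in the other 8 mice. In every library at least 99.5% of miR-451a reads began at the reference 5′ end.

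**Figure D5:**
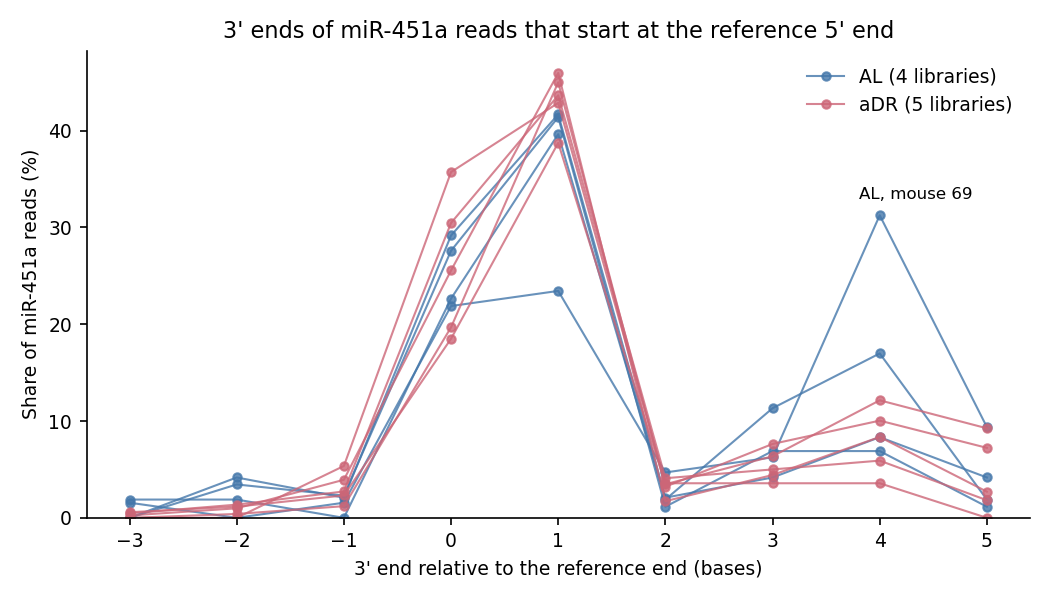
The share of miR-451a reads by 3′ end, in bases from the reference end, in each of the 9 libraries, for forms that start at the reference 5′ end. The reference end and the form longer by 1 base lead in 8 libraries, and AL mouse 69 has its peak at 4 bases longer (31.2%).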

How the data were processed

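The values are estimated counts of miRNAs and isomiRs that the authors made with miRMaster (Bowtie against miRBase, genome mm10) and deposited. Reads of several loci are shared, so 0.837% of the values of the diet table were not whole, and counts were rounded. A miRNA entered the tests if 10% or more of 1 region's libraries held 5 reads of it, which left 1334, of which 1288 had reads in the bulb. The main test was edgeR 4.0.16 (R 4.3.3; TMM, quasi-likelihood, Benjamini-Hochberg) on the 9 bulb libraries. limma 3.58.1 and DESeq2 1.42.0 were alternatives. CPM uses the TMM factors, and rpmm divides by all miRNA reads. IsomiRs had at least 5 reads in at least 4 libraries. Intervals cover the spread between mice, with the variance of each miRNA drawn towards that of the others. Their width and edgeR's p thus rest only in part on that miRNA's own spread. The exception is the comparison with other regions, where edgeR took libraries of 1 mouse as independent. Samples were grouped by their labels. Single values were compared by exact permutation tests, two-sided. Libraries of several regions came from the same animal, all 14 regions for 4 mice and 8 to 13 for the others. The mouse number thus pairs libraries across regions. Deviations from group means correlated by 0.149 on average within a mouse, with 6 of 9 mice over 0.1. The value between mice of 1 diet, -0.0415, is made negative by taking deviations from group means, so it is no separate baseline. Scripts were tested on simulated counts. Named miRNAs were the 15 with the smallest p, list members with a mean of at least 10 CPM, miR-451a, and up to 5 in each direction in the comparison with other regions; a few under 10 CPM are named to complete a list. The members and lists were chosen with earlier results of these data known. Mature sequences were found in RefSeq for 16 of 20 miRNAs sought, and none for the miR-486 forms.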

Additional observations from a re-analysis of the deposited data

Results flagged for a closer look

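In AL, mouse 68 stood far below the other 3 mice in the summed list of white blood cells and microglia, at 0.0675% of miRNA reads against 0.119% to 0.130%. The aDR mouse 67 was lower, at 0.0525%. In aDR, mouse 61 stood below the other 4 in the summed neuronal list, at 21.7% of miRNA reads against 26.3% to 27.7%. The AL mice ran from 22.0% to 27.6%. In all 60 groups of 4 or 5 libraries were searched for such a library, and chance alone flags about 1 in 20.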

How the results depend on the processing

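miR-451a kept its direction in all 19 alternatives run for it, and its call in 5. It was past the threshold with factors by relative log expression, DESeq2, no filter, without mouse 67 and without mice 66, 67 and 68. It was not past it with total counts (log2 1.71), limma-voom (1.598), limma-trend on log2(rpmm + 1) (1.34), at least 5 reads in at least 4 libraries (1.59) or a spread shared with the other regions (1.62), where 0 miRNAs were called, as with a mean of at least 10 CPM, which left miR-451a out. The adjusted p under the alternatives ran from 0.000135 to 1.00. In limma-voom over all regions, where the mouse entered as the replicate block, the log2 fold change was 1.56 and 0 were called. With 1 mouse left out the log2 fold change was 1.48 to 1.77, with 0 to 1 miRNAs called. The cause was not tested.

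With age, 65 miRNAs were called with both sexes, 5 at a mean of at least 10 CPM and 0 without the 3 month mice, beside 10. The comparison with other regions, with and without the block, the isomiRs, their composition and the library properties gave 0 calls in all alternatives run. Of 457 values for 24 further miRNAs, 456 kept their side of the threshold and, or within 1 SE, their direction, and miR-182-5p moved to -0.34 without mice 66, 67 and 68. Only miR-451a was called in the main test, so these 24 had no call to lose, and the tally does not measure changes in size. No library of the bulb fell under the depth minimum, so leaving out shallow libraries was not run for the test between the diets in the bulb. Among the other regions, 3 libraries, in 3 regions, did fall under it. They were kept in the fits by region given above, so low counts of single libraries there may in part reflect depth. The depth limits miRNAs under 1 CPM.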

Other observations

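Among the 100 isomiRs with the smallest p between the diets, 37 carried a substitution at position 6, counted from 0 at the 5′ end, beside 444 of the 18135 tested. Reads with a single substitution there made up 0.338% of all isomiR reads in AL mouse 69 and 0.172% to 0.243% in the other 8 mice. In the same library, substitutions at position 0 took 0.251% against 0.529% to 0.636% elsewhere, and those at position 10 took 0.189% against 0.356% to 0.443%. The share at position 6 did not separate the diets (exact permutation p = 0.476, adjusted p = 1 over 26 positions). These values were looked at after the isomiR test had been seen, and AL mouse 69 is also the mouse whose miR-451a 3′ ends differed.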
